A study of Mus musculus with 11 samples.

Results

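The hair bundle myosins and the row-length complex are described here through 9 genes, chosen by symbol: *Myo6*, *Myo7a*, *Myo15*, *Myo3a*, *Myo3b*, *Myo1c*, *Whrn*, *Eps8* and *Gpsm2*. All 9 were among the 18667 genes measured, and all 9 passed the filter of a mean of at least 0.1 FPKM that left 16169 genes for testing. FPKM counts fragments relative to transcript length and to the size of the library, so that levels can be set side by side between genes. RNA was sequenced from whole cochleae of 2-month-old mice, 1 library per individual cochlea, with 5 *Atf6*+/+ and 6 *Atf6*-/- libraries. The mice were littermates on C57BL/6J, a strain that carries the *Cdh23 ahl* allele in both genotypes, and the *Atf6* allele has a premature stop codon in exon 4. Both sexes were used in the study, and the sex behind each library was not given in the sources used here. The study asked which molecular defects in the ear accompany hearing loss without ATF6, the stress sensor of the endoplasmic reticulum.

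The hair bundle is the staircase of actin-filled stereocilia on top of each hair cell, and its rows of graded height are what makes the cell sensitive to the direction of deflection. Unconventional myosins walk along this actin and carry proteins to the base, shaft or tip of the stereocilium. At the tips of the tallest row, myosin 15 delivers whirlin and EPS8, together with GPSM2 and its G protein partner, and this complex sets row length. Loss of its parts leaves short stereocilia and deafness in mice.

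The genotype labels were checked on the targeted gene. *Atf6* was at 10.4, 9.99, 10.6, 8.39 and 8.25 FPKM in the *Atf6*+/+ libraries and had a lowest value of 3.83, a median of 4.22 and a highest value of 4.59 FPKM in the *Atf6*-/- libraries. The groups did not overlap, and all 6 *Atf6*-/- libraries lay below the lowest *Atf6*+/+ library. On the log2(FPKM + 0.1) scale, on which all fold changes are given, the difference was −1.13 ± 0.08 (SE, limma adjusted p = 5.17e-05, n = 5 and 6), with the exact permutation p at 0.00216, the smallest that 5 against 6 libraries allow.

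The libraries also differed in cochlear cell types within each genotype, and hair cell markers are given first because the bundle belongs to hair cells. The 16 hair cell markers were all detected, with *Ocm*, the calcium buffer oncomodulin of outer hair cells, as the most abundant. Their summed level was 230, 169, 97.3, 105 and 132 FPKM in *Atf6*+/+ libraries 1 to 5, and had a lowest value of 140, a median of 198 and a highest value of 212 FPKM in the *Atf6*-/- libraries. *Atf6*+/+ libraries 3, 4 and 5 were thus below every *Atf6*-/- library, while *Atf6*+/+ library 1 was above all of them. Of the 16 markers, 14 had a higher mean in *Atf6*-/- and 2 a lower one, where higher and lower means of listed genes are throughout those of log2(FPKM + 0.1), with a median log2 fold change of 0.24 against −0.01 over all genes tested. Only *Ocm* and *Slc26a5*, which encodes the outer hair cell motor prestin, met the unadjusted rule, a limma p not above 0.05 together with a log2 fold change of more than 0.05 in size. In whole tissue, a difference in hair cell number and a difference in RNA per hair cell cannot be told apart.

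No member of the group was called between genotypes. At an adjusted limma p under 0.05, 0 of 9 members were called, beside 11 of the 16169 genes tested (0.068%). At the unadjusted rule, 1 of 9 was called, *Eps8*, which was higher in *Atf6*-/-. The same rule called 1592 of all genes tested (9.85%), 724 of them higher in *Atf6*-/- (4.48%), so that 1 of 9 was near the background. The member count was 0 when any 1 of 8 libraries was left out (*Atf6*+/+ 3, 4 or 5, or *Atf6*-/- 1, 2, 3, 4 or 6), 2 without *Atf6*+/+ library 2 and 3 without *Atf6*+/+ library 1. Over all genes tested, the same fits called 1765 of 16171 without library 2 and 1865 of 16172 without library 1. From 1197 to 1788 genes were called without each of the 8 libraries. Groups overlapped for all 9 members, whereas 202 genes (1.25%) had groups that did not overlap. Of the 9 members, 7 had a higher mean and 2 a lower mean in *Atf6*-/-, while 7324 of all 16169 genes tested had a higher mean (45.3%). The median log2 fold change of the members was 0.16, beside −0.01 over all genes. This median was −0.03 with the hair cell marker level as a covariate, an alternative chosen after seeing the data, and it was also −0.03 without 4 libraries chosen after seeing the data, each for an extreme level of 1 marker list (*Atf6*+/+ 3 and 4, *Atf6*-/- 3 and 5). It was 0.01 with a bone marrow marker level as a covariate.

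*Myo6* and *Myo7a* encode motors of the stereociliary base and of the tip link. Myosin VI moves toward the minus end of actin and anchors the apical membrane, and myosin VIIa keeps the tip link under tension. *Myo6* (NCBI Gene 17920) was at 29.99, 27.96, 19.2, 15.7 and 24.0 FPKM in *Atf6*+/+ libraries 1 to 5, against a lowest value of 22.6, a median of 28.1 and a highest value of 30.9 FPKM in the *Atf6*-/- libraries. *Atf6*+/+ libraries 3 and 4 were low, libraries 1 and 2 lay within the *Atf6*-/- range, and the groups overlapped. *Atf6*-/- exceeded *Atf6*+/+ by 0.26 ± 0.15 on the log2 scale (SE, limma p = 0.102, adjusted p = 0.562, exact permutation p = 0.169). This difference was −0.04 without those 4 libraries, an alternative chosen after seeing the data. With the bone marrow marker level as a covariate it was 0.02, and with the hair cell marker level 0.12. Without *Atf6*+/+ library 4 it was 0.13. Without library 1 it was 0.36 (limma unadjusted p = 0.0266, adjusted p = 0.397), and without library 2 it was 0.34 (limma unadjusted p = 0.0498, adjusted p = 0.457). *Myo7a* (NCBI Gene 17921) was at 9.14, 7.52, 5.41, 4.86 and 5.80 FPKM in *Atf6*+/+, and had a lowest value of 5.92, a median of 7.10 and a highest value of 7.95 FPKM in *Atf6*-/-. Here *Atf6*+/+ libraries 3, 4 and 5 lay below every *Atf6*-/- library, and library 1 lay above all of them. For *Myo7a* the log2 fold change was 0.13 ± 0.15 (SE, limma adjusted p = 0.775, exact permutation p = 0.442), within the spread between libraries. It was 0.26 without *Atf6*+/+ library 1, 0.0716 without library 3 and 0.0337 without library 4, and it was below 0 with either marker level as a covariate or without the 4 libraries.

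*Myo15* encodes the motor that takes the row-length complex to the tips. *Myo15* (NCBI Gene 17910) was at 7.19, 5.12, 2.39, 2.18 and 2.59 FPKM in the *Atf6*+/+ libraries, and had a lowest value of 2.38, a median of 4.08 and a highest value of 5.64 FPKM in the *Atf6*-/- libraries. The *Atf6*+/+ libraries split into a high pair, 1 and 2, and 3 low libraries, and all 6 *Atf6*-/- libraries lay within the *Atf6*+/+ range. The coefficient of variation was 56.4% in *Atf6*+/+ and 31.9% in *Atf6*-/-. The log2 fold change was 0.16 ± 0.32 (SE, limma adjusted p = 0.887, exact permutation p = 0.667). Its sign was not stable: without *Atf6*+/+ library 4 the value was −0.00107, and with the bone marrow or hair cell marker level as a covariate it was −0.11 or −0.24.

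The class III myosins *Myo3a* and *Myo3b* carry espin proteins to the tips of stereocilia. *Myo3b* (NCBI Gene 329421) was at 2.42, 1.67, 0.64, 0.65 and 0.90 FPKM in *Atf6*+/+, and had a lowest value of 0.20, a median of 1.23 and a highest value of 1.83 FPKM in *Atf6*-/-. *Atf6*-/- library 5 was the lowest of all 11 and *Atf6*+/+ library 1 the highest, 12.1-fold apart, the widest range among the 9 members. The log2 fold change was −0.12 ± 0.47 (SE, limma adjusted p = 0.950, exact permutation p = 0.851). It was 0.26 without *Atf6*-/- library 5, 0.15 without *Atf6*+/+ library 1 and 0.02 without *Atf6*+/+ library 2. In the other direction it was −0.60 with the hair cell marker level as a covariate (limma adjusted p = 0.695), −0.39 with the bone marrow marker level and −0.31 without the 4 libraries, and down to −0.29 without a single library (*Atf6*+/+ 3). *Myo3a* (NCBI Gene 667663) was the lowest member, from 0.05 to 0.31 FPKM in *Atf6*+/+ and from 0.16 to 0.40 FPKM in *Atf6*-/-, with 1 *Atf6*-/- library above the *Atf6*+/+ range. Its log2 fold change was 0.48 ± 0.29 (SE, limma adjusted p = 0.574, exact permutation p = 0.130), and depended on the pseudocount, at 0.11 with 1 and 0.77 with 0.01 FPKM. With the bone marrow marker level as a covariate it was 0.26, and with the hair cell marker level 0.25. Without *Atf6*+/+ library 5 it was 0.29, and without library 1 it was 0.66 (limma unadjusted p = 0.0395, adjusted p = 0.420). FPKM values as low as those of *Myo3a* are given with only 2 decimals, and the read counts behind them are unknown.

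*Myo1c*, a motor of adaptation at the tip link that many other cell types also express, was the steadiest of the motors. *Myo1c* (NCBI Gene 17913) was at 15.0, 15.5, 15.0, 14.6 and 18.2 FPKM in *Atf6*+/+, and had a lowest value of 12.3, a median of 15.3 and a highest value of 17.9 FPKM in *Atf6*-/-. The groups overlapped, with *Atf6*+/+ library 5 highest and *Atf6*-/- library 2 lowest. The log2 fold change was −0.03 ± 0.09 (SE, limma adjusted p = 0.943), and it was 0.03 after rescaling to TPM, which sets each library to the same sum.

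**Figure D1:**
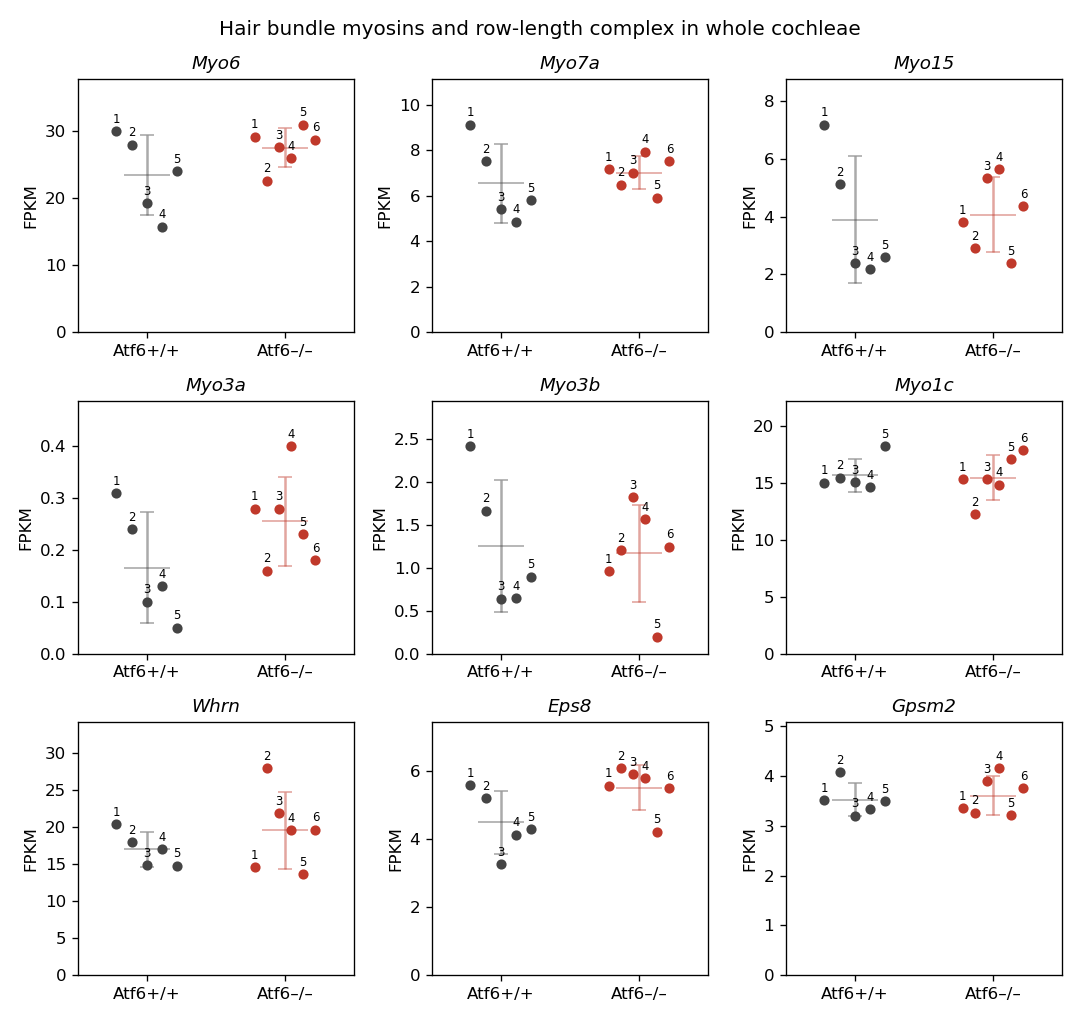
FPKM of the 9 members in each library, with points numbered by replicate, *Atf6*+/+ in grey (n = 5) and *Atf6*-/- in red (n = 6). The horizontal mark is the group mean and the bar its SD. The groups overlapped in every panel, and *Atf6*+/+ libraries 3 and 4 sat low for *Myo6*, *Myo7a*, *Myo15*, *Myo3b* and *Eps8*.

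Of the row-length cargo, only *Eps8* met the unadjusted rule. *Eps8*, which encodes an actin capping and bundling protein, is NCBI Gene 13860. It was at 5.59, 5.22, 3.27, 4.14 and 4.29 FPKM in *Atf6*+/+, and had a lowest value of 4.23, a median of 5.68 and a highest value of 6.10 FPKM in *Atf6*-/-. Of the *Atf6*-/- libraries, 5 of 6 were above the *Atf6*+/+ median and 3 above the *Atf6*+/+ highest value, while library 5 lay among the low *Atf6*+/+ libraries. For *Eps8* the log2 fold change was 0.30 ± 0.14 (SE, limma unadjusted p = 0.0448, adjusted p = 0.505, exact permutation p = 0.0693), so that *Eps8* met the unadjusted rule and missed both other tests. The unadjusted p was above 0.05 without each of the same 8 libraries, with values from 0.0665 to 0.124. With the bone marrow marker level as a covariate the value was 0.12 (limma adjusted p = 0.971), and with the hair cell marker level it was 0.17 (limma adjusted p = 0.720).

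*Whrn* encodes whirlin, the scaffold that myosin 15 carries. *Whrn* (NCBI Gene 73750) was at 20.4, 17.98, 14.8, 17.0 and 14.8 FPKM in *Atf6*+/+, and had a lowest value of 13.6, a median of 19.6 and a highest value of 27.95 FPKM in *Atf6*-/-. The *Atf6*-/- libraries spread to both sides of the *Atf6*+/+ range, with 2 above it and 2 below it, and library 2 was the highest. The coefficient of variation was 26.7% in *Atf6*-/- and 13.8% in *Atf6*+/+, and the log2 fold change was 0.17 ± 0.17 (SE, limma adjusted p = 0.738, exact permutation p = 0.387). Without *Atf6*-/- library 2 it was 0.0574, and without *Atf6*-/- library 5 it was 0.26. *Gpsm2* (NCBI Gene 76123), which also orients the spindle and the bundle, ranged from 3.20 to 4.07 FPKM in *Atf6*+/+ and from 3.21 to 4.16 FPKM in *Atf6*-/-. The ranges nearly coincided, and the log2 fold change was 0.03 ± 0.09 (SE, limma adjusted p = 0.932, exact permutation p = 0.712). Its sign turned in 4 of 22 alternatives, with −0.0314 with the hair cell marker level as a covariate, −0.0277 without the 4 libraries, −0.0116 without *Atf6*-/- library 4 and −0.00261 without *Atf6*+/+ library 3.

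Over all 11 libraries the order of mean levels was *Myo6* (25.6 ± 4.79 FPKM, SD), *Whrn* (18.4 ± 4.19), *Myo1c* (15.5 ± 1.66), *Myo7a* (6.80 ± 1.25), *Eps8* (5.06 ± 0.92), *Myo15* (3.99 ± 1.67), *Gpsm2* (3.57 ± 0.35), *Myo3b* (1.21 ± 0.63) and *Myo3a* (0.21 ± 0.10). The highest and lowest means were 119-fold apart. *Myo6* was above *Whrn* in 9 of 11 libraries, and *Whrn* was above *Myo1c* in 7 of 11, so that the latter neighbours did not differ beyond their spread. *Myo7a* was above *Eps8* in all 11 libraries. *Myo15* and *Gpsm2* could not be ordered, since *Myo15* was the higher in 6 of 11. The ranges of *Myo1c* and *Myo7a* did not overlap, nor did those of *Gpsm2* and *Myo3b*.

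Several members varied together from cochlea to cochlea. Of the 36 pairs, 30 had a positive Pearson r of log2 levels over the 11 libraries, and 10 had a permutation p under 0.05 after Benjamini-Hochberg adjustment over the 36 relations. *Myo7a* and *Myo15* were the closest pair, with r = 0.943 (permutation p = 1e-05, the smallest that 100000 resamples can give, adjusted p = 0.00036) and Spearman rho = 0.916 (permutation p = 0.00021, adjusted p = 0.00378). The relation was as close within genotypes, at r = 0.948 for deviations from the genotype means, and at r = 0.923 without the 2 libraries farthest from the median of *Myo7a*. *Myo15* and *Myo3b* followed, with r = 0.840 (permutation p = 0.00057, adjusted p = 0.0103), rho = 0.936 (permutation p = 7e-05, adjusted p = 0.00252) and r = 0.798 without the 2 farthest libraries. The other 8 pairs had adjusted p from 0.0484 to 0.0493, and 3 of them (*Myo15* with *Eps8*, *Myo15* with *Gpsm2*, and *Whrn* with *Eps8*) no longer passed this threshold with a pseudocount of 1.

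The motor of the row-length complex was set beside each of its cargoes, without a test of the difference between their correlations. *Myo15* had r = 0.721 with *Eps8* (permutation p = 0.0135, adjusted p = 0.0493, rho = 0.709, permutation p = 0.0188, adjusted p = 0.0564, r = 0.714 without the 2 farthest libraries). With *Gpsm2* the values were r = 0.743 (permutation p = 0.0134, adjusted p = 0.0493, rho = 0.800, permutation p = 0.00511, adjusted p = 0.0272, r = 0.911 without the 2 farthest libraries). With *Whrn* they were r = 0.443 (permutation p = 0.172, adjusted p = 0.281) and rho = 0.591 (permutation p = 0.062, adjusted p = 0.117), with r = 0.421 without the 2 farthest libraries. *Myo1c* was related to none of the others at an adjusted p under 0.05, and its r with *Whrn* was −0.632 (permutation p = 0.0389, adjusted p = 0.0875), falling to −0.126 without *Atf6*+/+ library 5 and *Atf6*-/- library 2, on which it rested. The *Myo6* and *Myo7a* relation also rested on 2 libraries, since r = 0.755 (permutation p = 0.00599, adjusted p = 0.0484, rho = 0.606, permutation p = 0.052, adjusted p = 0.111) became 0.357 without *Atf6*+/+ libraries 3 and 4.

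The members were then set beside the levels of cell type markers in the same libraries, as 63 further relations chosen after the values had been seen, of which 15 had an adjusted p under 0.05. The mean log2 level of the 16 hair cell markers, which include no member, had r = 0.951 with *Myo7a* (permutation p = 4e-05, adjusted p = 0.00084, rho = 0.870, permutation p = 0.00094, adjusted p = 0.00846) and r = 0.937 with *Myo15* (permutation p = 3e-05, adjusted p = 0.00084, rho = 0.909, permutation p = 0.00026, adjusted p = 0.0068). Without the 2 farthest libraries these were 0.920 and 0.900. For *Eps8* the r was 0.825 (permutation p = 0.00222, adjusted p = 0.014, rho = 0.773, permutation p = 0.00737, adjusted p = 0.0387), and 0.616 without *Atf6*+/+ libraries 3 and 4. *Myo6* had r = 0.799 (permutation p = 0.00264, adjusted p = 0.0151, rho = 0.582, permutation p = 0.0659, adjusted p = 0.189), which became 0.466 without the same libraries. For *Myo3b* the r was 0.715 (permutation p = 0.0109, adjusted p = 0.0458, rho = 0.855, permutation p = 0.00153, adjusted p = 0.012), and 0.887 without *Atf6*+/+ library 1 and *Atf6*-/- library 5. *Myo3a* had r = 0.765 (permutation p = 0.00585, adjusted p = 0.0307, rho = 0.893, permutation p = 0.00042, adjusted p = 0.0068), and 0.771 without *Atf6*+/+ libraries 3 and 5. *Gpsm2* had r = 0.638 (permutation p = 0.0377, adjusted p = 0.103, rho = 0.691, permutation p = 0.0228, adjusted p = 0.0845), and 0.662 without *Atf6*+/+ library 2 and *Atf6*-/- library 4. *Myo1c* and *Whrn* had r of 0.0578 and 0.393 with the same markers (permutation p = 0.866 and 0.231, adjusted p = 0.894 and 0.364, rho = −0.0727 and 0.509, permutation p = 0.837 and 0.113, adjusted p = 0.864 and 0.237). The r of *Myo1c* was 0.112 without *Atf6*+/+ library 5 and *Atf6*-/- library 2, and that of *Whrn* was 0.669 without *Atf6*-/- libraries 2 and 5. The hair cell and supporting cell marker levels themselves had r = 0.969 (permutation p = 3e-05, adjusted p = 0.00063 over 21 relations between markers, rho = 0.882, permutation p = 0.00065, adjusted p = 0.0136, r = 0.936 without *Atf6*+/+ libraries 3 and 4). The part of hair cell content in the member levels was not tested beyond the covariate fit.

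Supporting cell markers were set beside the members in the same way. Their mean log2 level had r = 0.938 with *Myo7a* (permutation p = 2e-05, adjusted p = 0.00084, rho = 0.879, permutation p = 0.0007, adjusted p = 0.00735) and r = 0.905 with *Myo15* (permutation p = 8e-05, adjusted p = 0.00126, rho = 0.891, permutation p = 0.00054, adjusted p = 0.0068), and 0.880 and 0.868 without *Atf6*+/+ libraries 1 and 4. With *Myo6* the r was 0.837 (permutation p = 0.00191, adjusted p = 0.0134, rho = 0.627, permutation p = 0.0447, adjusted p = 0.152), and with *Eps8* it was 0.760 (permutation p = 0.00685, adjusted p = 0.0329, rho = 0.545, permutation p = 0.0879, adjusted p = 0.198). Both rested on *Atf6*+/+ libraries 3 and 4, without which they were 0.425 and 0.474. The other 5 members had r from 0.208 (*Myo1c*) to 0.683 (*Myo3b*), with adjusted p above 0.05, while the rho of *Myo3b* (0.827, permutation p = 0.00269, adjusted p = 0.0169) and of *Gpsm2* (0.755, permutation p = 0.0098, adjusted p = 0.0428) passed.

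*Myo6* and *Myo3b* were also set beside *Slc26a5*. This gene was at 1.17, 1.03, 0.50, 0.24 and 0.56 FPKM in *Atf6*+/+, with a lowest value of 0.51, a median of 1.63 and a highest value of 4.11 FPKM in *Atf6*-/-, the last in library 5. *Myo6* ranked almost as *Slc26a5* did, with rho = 0.973 (permutation p = 1e-05, the smallest possible, adjusted p = 0.00063) and r = 0.855 (permutation p = 0.00044, adjusted p = 0.00462, r = 0.845 without *Atf6*+/+ libraries 3 and 4). *Myo6* was also inversely related to the neuron markers, with r = −0.908 (permutation p = 0.00136, adjusted p = 0.0107, rho = −0.473, permutation p = 0.148, adjusted p = 0.283), but r was −0.444 without *Atf6*+/+ libraries 3 and 4, on which the relation rested. In these 2 libraries the neuron marker *Prph* was at 13.29 and 41.5 FPKM. It was between 1.57 and 1.74 FPKM in the other *Atf6*+/+ libraries and between 1.49 and 2.4 FPKM in *Atf6*-/-. The part of *Prph* in this relation was not tested. For *Myo1c* and the neuron markers r was −0.456 (permutation p = 0.168, adjusted p = 0.294, r = −0.541 without *Atf6*+/+ library 5 and *Atf6*-/- library 2), and rho was −0.818 (permutation p = 0.00327, adjusted p = 0.0187). Between *Myo3b* and *Slc26a5* the r was −0.198 (permutation p = 0.56, adjusted p = 0.666, rho = 0.182, permutation p = 0.592, adjusted p = 0.695), and its sign rested on 2 libraries, since it was 0.459 without *Atf6*+/+ library 1 and *Atf6*-/- library 5.

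*Myo3b*, *Myo15* and *Gpsm2* were related to the mean log2 level of 3 otoconial genes, which are made by the vestibular organs next to the cochlea. This mean had r = 0.907 with *Myo3b* (permutation p = 0.00023, adjusted p = 0.0029, rho = 0.836, permutation p = 0.00227, adjusted p = 0.0159, r = 0.737 without *Atf6*+/+ library 1 and *Atf6*-/- library 5). With *Myo15* the r was 0.815 (permutation p = 0.00121, adjusted p = 0.0107, rho = 0.891, permutation p = 0.00054, adjusted p = 0.0068, r = 0.797 without *Atf6*+/+ libraries 1 and 4). With *Gpsm2* it was 0.743 (permutation p = 0.0073, adjusted p = 0.0329, rho = 0.755, permutation p = 0.0102, adjusted p = 0.0428), and 0.558 without *Atf6*+/+ library 2 and *Atf6*-/- library 4. For *Myo7a* it was 0.685 (permutation p = 0.0188, adjusted p = 0.0708, rho = 0.765, permutation p = 0.00813, adjusted p = 0.0394, r = 0.665 without *Atf6*+/+ libraries 1 and 4). With *Myo6* the r was 0.113 (permutation p = 0.723, adjusted p = 0.813, rho = 0.0818, permutation p = 0.816, adjusted p = 0.857, r = −0.120 without *Atf6*+/+ libraries 3 and 4). The summed level of the 3 genes was 17.5, 14.3, 10.4, 11.8 and 10.7 FPKM in *Atf6*+/+ libraries 1 to 5, and had a lowest value of 8.0, a median of 11.1 and a highest value of 15.1 FPKM in *Atf6*-/-. *Otop1*, an otopetrin proton channel, was the most abundant at a mean of 7.88 FPKM and did not share this pattern, being highest in *Atf6*+/+ library 4 (9.54 FPKM), where *Myo15* was lowest, and at 7.89 FPKM in *Atf6*-/- library 5, where *Myo3b* was lowest. None of the 3 genes was at 0 in every library, and none met the unadjusted rule. The mean log2 level of all 3 was lower in *Atf6*-/-, although *Oc90* had the higher mean there in FPKM (0.33 against 0.29). *Oc90* lay near the pseudocount of 0.1 FPKM, from 0.03 to 0.66 FPKM in *Atf6*+/+. In *Atf6*-/- its median was 0.09 and its highest value 1.56 FPKM. The part of vestibular tissue in the member levels was not tested.

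*Atf6*-/- library 5 had the lowest otoconial marker level and the highest *Slc26a5* level of the 11 libraries. *Otol1*, the gene of the otoconial matrix protein otolin, was at 0.08 FPKM there, against 3.11 FPKM in the next lowest *Atf6*-/- library 1, and between 2.19 and 9.0 FPKM in the *Atf6*+/+ libraries. In this library *Slc26a5* and *Myo6* were at their highest of all 11 (4.11 and 30.9 FPKM), *Myo3b* was at its lowest (0.20 FPKM), and *Myo15* was at the bottom of the *Atf6*-/- range (2.38 FPKM). *Espnl*, an espin-like partner of the class III myosins, was also at its lowest, 0.24 FPKM, against 1.73 FPKM in the next lowest *Atf6*-/- library. *Otol1* and *Espnl* were singled out after their values had been seen.

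**Figure D2:**
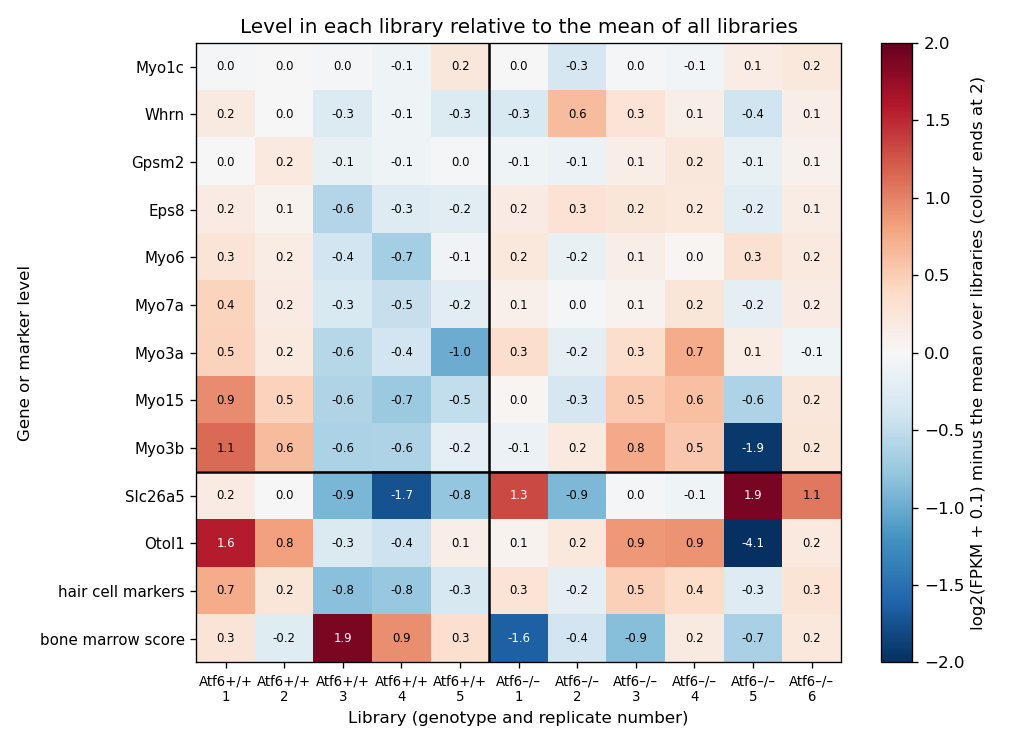
Level of each member, of *Slc26a5* and *Otol1*, and of the hair cell and bone marrow markers in each library, as log2(FPKM + 0.1) minus the mean over the 11 libraries; red is above and blue below the mean, and colours end at 2. In *Atf6*-/- library 5, *Myo3b* and *Otol1* were low while *Slc26a5* was high, and in *Atf6*+/+ libraries 3 and 4 most members were low while the bone marrow markers were high.

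Markers of bone marrow and blood had lower means in *Atf6*-/-, opposite to most members. All 8 neutrophil and all 8 erythroid markers and 7 of 8 B cell markers had a lower mean in *Atf6*-/-, and 4, 6 and 3 of them met the unadjusted rule. The summed neutrophil level was 534, 600, 3386, 1350 and 273 FPKM in *Atf6*+/+, with *S100a9* as the most abundant gene, and 111, 274 and 1294 FPKM as the lowest, median and highest *Atf6*-/- values. The summed erythroid level, led by the globin *Hba-a1*, was 16104, 4827, 14861, 13715 and 46392 FPKM in *Atf6*+/+, and 2870, 4934 and 9375 FPKM as the lowest, median and highest *Atf6*-/- values. The summed B cell level, led by *Ebf1*, was 33.1, 30.7, 50.2, 47.5 and 33.5 FPKM in *Atf6*+/+, and 29.2, 30.3 and 36.9 FPKM as the lowest, median and highest *Atf6*-/- values. No marker of these lists was at 0 in every library. *Atf6*+/+ libraries 3 and 4, low in *Eps8* and *Myo6*, had the highest summed neutrophil and B cell levels. By mean log2 level, neutrophil markers were higher in *Atf6*-/- library 4 (7.03) than in *Atf6*+/+ library 4 (6.57). By summed level they were lower there (1294 against 1350 FPKM). The mean log2 level over all these lists was also lower in *Atf6*-/- library 4 (4.07) than in *Atf6*+/+ library 4 (4.81). *Eps8* and *Myo6* were at 5.79 and 25.9 FPKM in that *Atf6*-/- library. The bone marrow level, the mean log2 level over these lists, had r = −0.676 with *Eps8* (permutation p = 0.0217, adjusted p = 0.076, rho = −0.582, permutation p = 0.0661, adjusted p = 0.189), and r = −0.149 without *Atf6*+/+ libraries 3 and 4. The part of marrow content in the member values was not tested beyond the covariate fits given above.

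The genes outside the group with the most similar pattern over the 11 libraries included *Slc1a3* of the supporting cell list and *Otof* of the hair cell list. With the mean of the 9 members, Pearson r was highest for *Slc1a3*, a glial and supporting cell glutamate transporter (0.980), the neurotrophin *Bdnf* (0.976), otoferlin *Otof*, the calcium sensor of hair cell exocytosis (0.975), the RNA-binding gene *Rbm24* (0.969) and the potassium channel *Kcna10* (0.968). *Otof*, for example, was at 31.5, 21.4, 7.40, 8.30 and 13.9 FPKM in *Atf6*+/+ and between 9.95 and 24.8 FPKM in *Atf6*-/-, with library 5 lowest. These values are a description of 11 libraries among 13603 candidate genes that averaged 1 FPKM or more, and carry no p.

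The genes nearest to single members differed. For *Myo15* they were *Chrna10*, a subunit of the efferent acetylcholine receptor (r = 0.976), and *Loxhd1*, a gene of the stereocilium (0.972), and for *Myo7a* they were *Sall2* (0.978) and *Otogl*, a gene of the acellular gels over the sensory epithelia (0.960). *Myo3b* was nearest to *Espnl* (0.990) and to the ciliary gene *Tekt1* (0.989). *Myo6* was nearest to *Cdk19* (0.981) and the BMP receptor *Bmpr1a* (0.980), and *Eps8* to *Plekhh1* (0.983) and *Pkp4* (0.970). *Whrn* was nearest to *Sfxn5* (0.941) and *Mmd2* (0.937), and *Myo1c* to the mechanosensitive channel *Piezo1* (0.929) and the cyclin *Ccnd2* (0.919). For *Gpsm2* they were *Agbl5* (0.911) and *Zfp873* (0.890), and for *Myo3a* *Cpped1* (0.913) and *Atpsckmt* (0.898). No gene was the nearest of more than 1 member.

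Partners of the row-length complex gave 1 gene at the unadjusted rule. Of 14 partner genes, 6 had a higher and 8 a lower mean in *Atf6*-/-, with a median log2 fold change of −0.04, and 0 of 14 were called at an adjusted limma p under 0.05. At the unadjusted rule 1 was called, *Pdzd7*, the ankle link scaffold that binds whirlin, at 7.40 ± 0.72 FPKM (SD) in the 5 *Atf6*+/+ libraries against 8.33 ± 0.55 FPKM in the 6 *Atf6*-/- libraries, a log2 fold change of 0.17 ± 0.08 (SE, limma adjusted p = 0.496). The most abundant partner was the G protein subunit *Gnai2*, at a mean of 208 FPKM.

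Of 27 other hair bundle genes, 17 had a higher and 10 a lower mean in *Atf6*-/-, with a median log2 fold change of 0.06, and 3 met the unadjusted rule while 0 were called at an adjusted limma p under 0.05. *Fscn1*, the actin bundler fascin, was at 28.1, 29.4, 23.0, 30.2 and 28.4 FPKM in *Atf6*+/+, and had a lowest value of 30.3, a median of 32.5 and a highest value of 35.3 FPKM in *Atf6*-/-. Its groups did not overlap, and its log2 fold change was 0.24 ± 0.07 (SE, limma adjusted p = 0.374). *Tprn*, the taperin gene of the stereociliary base, averaged 9.98 ± 1.60 FPKM (SD) in *Atf6*+/+ against 11.6 ± 0.69 FPKM in *Atf6*-/- (log2 fold change 0.23, limma adjusted p = 0.481). *Ripor2* averaged 11.2 ± 1.93 FPKM (SD) in *Atf6*+/+ against 9.32 ± 0.69 FPKM in *Atf6*-/- (log2 fold change −0.24, limma adjusted p = 0.491). *Actg1*, the gamma actin of the stereociliary core, was the most abundant at a mean of 756 FPKM.

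Other unconventional and non-muscle myosins that were tested gave no call. Of 18 other unconventional myosins, 17 passed the filter, 10 had a higher and 7 a lower mean in *Atf6*-/-, and 0 met the adjusted or the unadjusted limma rule; *Myo5a* was the most abundant at a mean of 33.8 FPKM, and *Myo7b* did not pass. Of 3 non-muscle myosin heavy chains, 1 was higher and 2 lower, again with 0 at either limma rule, and *Myh10* was the most abundant at a mean of 45.7 FPKM. Their median log2 fold changes were 0.03 and −0.02.

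In other cochlear cell types, genes met the unadjusted rule in both directions, and none was called at an adjusted limma p under 0.05. Of 12 supporting cell markers, 11 had a higher mean in *Atf6*-/- and 2 met the rule, *Fgfr3*, a growth factor receptor of pillar and Deiters' cells (log2 fold change 0.59 ± 0.12, SE; limma adjusted p = 0.133, groups not overlapping), and *Epyc* (0.86 ± 0.31, SE, adjusted p = 0.431). Their summed level was 749, 680, 416, 398 and 647 FPKM in *Atf6*+/+, with a lowest value of 549, a median of 705 and a highest value of 851 FPKM in *Atf6*-/-, and *Gjb6*, a connexin, was the most abundant gene. All 10 neuron markers, led by *Calb2*, had a lower mean in *Atf6*-/-, and *Syt1* and *Stmn2* met the rule (log2 fold changes −0.40 and −0.25). Of 8 Schwann cell markers, led by *Mbp*, 6 were higher and 2 met the rule, among them *Mag* (0.33), and of 9 strial markers, led by *Atp1b2*, 8 were higher and the potassium channel *Kcnj10* met the rule (0.37). No bone, macrophage, skeletal muscle or otoconial marker met it; the most abundant genes of the bone, macrophage and muscle lists were *Bglap*, *C1qb* and *Casq1*.

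Among hair cell markers, the 2 genes that met the unadjusted rule are both typical of outer hair cells. *Ocm* was at 49.8, 43.3, 16.9, 17.8 and 43.1 FPKM in *Atf6*+/+, and had a lowest value of 35.2, a median of 73.4 and a highest value of 106 FPKM in *Atf6*-/-. Its groups overlapped through *Atf6*-/- library 2, and the other 5 *Atf6*-/- libraries were above every *Atf6*+/+ library. The log2 fold change was 1.16 ± 0.36 (SE, limma adjusted p = 0.391), and that of *Slc26a5* was 1.197 ± 0.49 (SE, limma adjusted p = 0.475).

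Start-site sequences of the members were searched for letters related to ATF6 binding. RefSeq windows of 300 bases (GRCm38.p6), from 250 before to 50 after the start, were matched by symbol for 8 of 9 members, as 11 windows; *Eps8* was not matched. On either strand, CCAAT followed by 9 bases and CCACG was in 0 of 11 member windows and in 0.119% of all 32851 windows, and TGACGTGG in 0 of 11 and 0.676%. The shorter CCACG, which is part of the first motif, was in 5 of 11 and 32.8%, and TGACGTG, which is part of TGACGTGG, in 1 of 11 and 2.01%. CCACG is also read on the other strand of TGACGTGG. The TGACGTG match was in *Myo6*, whose 250 bases before the start are shown with TGACGTG and CCACG in capitals. For *Myo15* and *Myo3b*, which varied together, the capitals mark CANNTG, the E-box letters that hair cell bHLH factors read, present in 6 of 11 member windows and 72.3% of all, and the *Myo3b* window holds none. These are matches of letters, and nothing was measured at these windows.
*Myo6*, chr9:80164784-80165033, plus strand: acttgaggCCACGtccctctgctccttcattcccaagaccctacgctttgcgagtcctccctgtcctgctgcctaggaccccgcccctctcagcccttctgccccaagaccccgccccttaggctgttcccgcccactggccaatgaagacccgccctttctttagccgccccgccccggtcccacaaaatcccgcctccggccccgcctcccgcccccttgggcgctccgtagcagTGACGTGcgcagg
*Myo15*, chr11:60469089-60469338, plus strand: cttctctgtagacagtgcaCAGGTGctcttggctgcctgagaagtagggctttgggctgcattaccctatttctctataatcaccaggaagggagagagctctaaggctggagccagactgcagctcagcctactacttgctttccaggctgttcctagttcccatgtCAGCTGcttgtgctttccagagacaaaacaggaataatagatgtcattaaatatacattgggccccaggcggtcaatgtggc
*Myo3b*, chr2:70038876-70039125, plus strand: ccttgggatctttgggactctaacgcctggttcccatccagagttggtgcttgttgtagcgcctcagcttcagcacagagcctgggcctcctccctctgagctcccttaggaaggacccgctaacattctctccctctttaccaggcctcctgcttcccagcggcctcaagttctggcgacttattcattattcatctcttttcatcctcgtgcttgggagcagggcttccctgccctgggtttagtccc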

How the data were processed

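RNA from whole cochleae was sequenced as stranded mRNA libraries (DNBSEQ, paired-end 100 bp reads, 30 M reads per library as stated in the study's methods). Alignment by the authors was to GRCm39 (HISAT2 2.0.4), followed by expression estimates with RSEM (1.2.12 in the submitters' processing notes) and DESeq2 1.4.5. The values deposited are FPKM per gene and library with 2 decimals, not scaled to a common sum; their sums ran from 462005 to 537926. No read counts were used, and the read number and counting error behind each value are unknown.

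Log2(FPKM + 0.1) was fitted with genotype as the only term by limma 3.58.1, with its mean-variance trend, in R 4.3.3. Tests were two-sided, and p was adjusted by Benjamini-Hochberg over genes averaging 0.1 FPKM or more. The cutoffs of the unadjusted rule are those of the study, applied here to the limma p. Exact two-sided permutation tests of mean differences enumerated every arrangement of 5 against 6, and correlations used 100000 permutations. The model and the correlation test were tested on simulated data. Other steps ran in Python 3.11.15 (scipy 1.17.1, numpy 2.4.6, matplotlib 3.10.9, pandas 2.3.3).

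Named genes were the 9 members, *Atf6*, every gene of each other list at the unadjusted rule and its most abundant gene, the 5 genes (mean of at least 1 FPKM) nearest to the mean of the members, and the 2 nearest to each member. Of the genes at the unadjusted rule, those of the neutrophil, B cell and erythroid lists are given as counts; besides *S100a9* and *Hba-a1* they included *S100a8*, *Ltf*, *Lcn2*, *Cd79a*, *Ms4a1*, *Hba-a2*, *Hbb-bs*, *Hbb-bt*, and *Alas2*, all lower in *Atf6*-/-. Some genes that the rule names are not reported here. The members and lists were chosen with earlier results of these data known. *Tmc1*, *Strc*, *Grxcr1* and *Lhfpl5* are in both the hair cell and the bundle list. Alternatives changed the pseudocount (1 or 0.01), the filter (any value above 0, or an average of 1 FPKM), the scaling (TPM, or median of ratios), the variance (robust) and the model (a replicate block, or a bone marrow level as a covariate), or left out each library in turn. A hair cell level as a covariate and leaving out 4 libraries were added after seeing the data. The 4 were *Atf6*+/+ library 3 (highest neutrophil level), *Atf6*+/+ library 4 (lowest strial level), *Atf6*-/- library 3 (skeletal muscle genes) and *Atf6*-/- library 5 (lowest otoconial level).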

Additional observations from a re-analysis of the deposited data

Results flagged for a closer look

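A library was singled out where its gap to the nearest other library of its genotype took up more of the group's range than Dixon's critical value allows. Chance flags about 1 in 20 groups, and 6 values stood apart in 54 groups of member, *Atf6* and marker list levels. *Myo1c* was at 18.2 FPKM in *Atf6*+/+ library 5, with the other 4 *Atf6*+/+ libraries between 14.6 and 15.5 FPKM. *Eps8* was at 4.23 FPKM in *Atf6*-/- library 5, with the other *Atf6*-/- libraries at 5.51 FPKM or above; without this library the log2 fold change of *Eps8* was 0.38 (limma unadjusted p = 0.0120, adjusted p = 0.504). The remaining 4 were summed marker levels. Schwann cell markers were at 6819 FPKM in *Atf6*+/+ library 4. Neutrophil markers were at 1294 FPKM in *Atf6*-/- library 4. Erythroid markers were at 46392 FPKM in *Atf6*+/+ library 5. Skeletal muscle markers were at 47.9 FPKM in *Atf6*-/- library 3 and at 6.0 FPKM or below in the other *Atf6*-/- libraries.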

How the results depend on the processing

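Across 22 alternatives, no member had an adjusted limma p under 0.05 in any of 197 fits, the lowest being 0.368; *Myo3a* did not reach a mean of 1 FPKM and has no value under that filter. Direction was kept in 179 of these fits. Genes called at adjusted p numbered 11. They numbered 4 with the replicate block, 6 with the bone marrow covariate, 6 without the 4 libraries and from 8 to 13 in the other alternatives. Genes at unadjusted p fell from 1592 to 886 with the bone marrow covariate. They numbered 1063 without the 4 libraries, 1078 with the replicate block and 1202 with the hair cell covariate. Members at unadjusted p numbered 1, but 0 with the replicate block, either covariate or the 4 libraries left out. Without single libraries the count ran from 0 to 3: it was 3 (*Myo6*, *Myo3a* and *Eps8*) without *Atf6*+/+ library 1, 2 (*Myo6* and *Eps8*) without *Atf6*+/+ library 2, and 0 without each of the 8 libraries named for *Eps8*. Over all genes tested, 1865 of 16172 were called without *Atf6*+/+ library 1 and 1765 of 16171 without library 2. The median log2 fold change of the members ran from −0.03 to 0.26, against 0.16 in the main fit, so that its sign was not stable. The SD of the member median between single libraries was 0.22, which is not the error of a difference between groups.

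Signs changed as follows. Without the 4 libraries, the log2 fold change was −0.0408 for *Myo6*, −0.0192 for *Myo7a*, −0.168 for *Myo15* and −0.0277 for *Gpsm2*. With the hair cell covariate it was −0.0444 for *Myo7a*, −0.237 for *Myo15* and −0.0314 for *Gpsm2*, and with the bone marrow covariate −0.00227 for *Myo7a* and −0.106 for *Myo15*. On the TPM scale it was 0.0311 for *Myo1c*, with the median over all genes at 0.04 in place of −0.01. Without single libraries, values ran from −0.00107 to 0.42 for *Myo15*, from −0.29 to 0.26 for *Myo3b*, from −0.0694 to 0.0386 for *Myo1c* and from −0.0116 to 0.0818 for *Gpsm2*, and with no change of sign from 0.13 to 0.36 for *Myo6*, 0.0337 to 0.26 for *Myo7a*, 0.29 to 0.66 for *Myo3a*, 0.0574 to 0.26 for *Whrn* and 0.20 to 0.39 for *Eps8*. The cause was not tested. *Atf6* kept its direction and call in every alternative, from −1.18 to −0.99.

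Replicate numbers are shared between genotypes, yet only 1 of 5 same-numbered pairs deviated together at r over 0.1 across genes (range −0.21 to 0.12). Of the 5 *Atf6*+/+ libraries, 1 correlated best with its own number. The labels give no pairing, and these values cannot show whether same-numbered libraries shared more than a number. In the replicate block, where *Atf6*-/- library 6 has no partner and carries no weight, the median log2 fold change of the members was 0.13, that of *Eps8* 0.30 (limma adjusted p = 0.760) and that of *Atf6* −1.16. Of the member pairs, 10 were related at an adjusted p under 0.05, and 7 with a pseudocount of 1. Since no read counts were used, the counting error of low values such as those of *Myo3a* could not be given, and a difference that missed the threshold is not shown to be absent.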

Other observations

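The spread of the members was larger in *Atf6*+/+ than in *Atf6*-/- for 6 of 9 genes (66.7%), beside 9977 of the 16169 genes tested (61.7%), as coefficients of variation; this was not tested. *Myo6* had a coefficient of variation of 25.4% in *Atf6*+/+ and 10.6% in *Atf6*-/-, and *Myo7a* had 26.9% and 10.3%.

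A few bundle and myosin genes, chosen after their values were seen, stood highest in *Atf6*+/+ library 3 or 1. *Myo1f* and *Myo1g*, class I myosins of blood cells, were at 7.41 and 4.18 FPKM in *Atf6*+/+ library 3, and at 1.86 and 0.49 FPKM in *Atf6*+/+ library 1. They were at 3.95 and 1.83 FPKM in *Atf6*+/+ library 4, and at 3.79 and 2.42 FPKM in *Atf6*-/- library 4. *Lcp1*, a leukocyte plastin listed among the bundle genes, was at 35.4 FPKM in *Atf6*+/+ library 3 and between 10.9 and 18.03 FPKM in the *Atf6*-/- libraries. This library had the highest neutrophil level. *Myo1h* was at 3.24 FPKM in *Atf6*+/+ library 1 and at 0.71 FPKM in *Atf6*-/- library 5, the libraries with the highest and lowest *Otol1*.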
